A study of Rattus norvegicus with 6 samples.

Results

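Fam111a was 1 of 17833 genes in the expression table of rat pulmonary vein (PV) and was taken from it by its symbol. It carries NCBI Gene number 499322. It was chosen by its FPKM values in the same 6 libraries, as the gene with the largest fall between the groups, so its own levels are given as a description, without a test. Bulk RNA sequencing had been performed on the PV of the right lung's upper lobe, collected at postnatal day 21, in 2 groups of 3 libraries. Rats of the bilateral PV banding (BPVB) group, a model of acquired PV stenosis, underwent pulmonary vein banding at postnatal day 1. Rats of the sham group were operated on the same day without constriction of the veins. All 6 libraries came from wild type rats of the SD (Sprague-Dawley) strain, and all rats were anesthetized by cooling and had the chest opened. By the methods of the study each library came from a different rat, drawn at random from its group. The sex of the rats is not given in the sources used here.

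FAM111A is a nuclear serine protease of the trypsin fold. It binds proliferating cell nuclear antigen (PCNA), the ring that tethers DNA polymerases to their template, and works at replication forks, where it helps to clear proteins that have become trapped on DNA. It cleaves itself, and its abundance varies over the cell cycle in cultured cells. It was first studied as a host factor that restricts some DNA viruses. Heterozygous mutations in the human gene cause Kenny-Caffey syndrome and osteocraniostenosis, disorders of bone growth and parathyroid function.

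The region around the start of the gene is shown because its transcription is set there, and because some of the factors tested below bind such regions through known motifs. RefSeq places the gene on the forward strand of chromosome 1 in the rat build GRCr8. The promoter window of chr1:219065389-219065688 runs from 250 bases before the start on which RefSeq's window is set to 50 bases after it. RefSeq also annotates an earlier start of the gene inside this window. The bases of this window before that earlier start were as follows, on the forward strand, with no capitals because no motif searched lay in them. A shorter stretch around the later start, which lies inside the gene as counted from the earlier one, held the only match, a cell cycle homology region (CHR) motif, whose reverse complement is set in capitals.
Fam111a upstream, chr1:219065389-219065541: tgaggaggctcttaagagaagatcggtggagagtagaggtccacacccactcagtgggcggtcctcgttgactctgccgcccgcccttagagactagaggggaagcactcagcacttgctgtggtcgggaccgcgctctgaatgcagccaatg
Fam111a around the later start, chr1:219065626-219065653: ggttctgttttTTCAAAaagacgcggga

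The window was 55.3% G and C and held 15 CpG pairs, against medians of 51.7% and 7.0 over the 33469 rat promoters of the same length. Motifs were searched on both strands. The CHR motif TTTGAA, bound by complexes that repress or activate genes of late cell cycle, occurred in 18.3% of all promoters. No match was found to the E2F motifs TTTCCCGC, TTTGGCGC and TTTCGCGC (1.72% of promoters), the core of the interferon response element GAAANNGAA (9.71%), the E-box CACGTG (6.42%) or the D-box motifs TTATGTAA and TTACGTAA (1.01%). A match describes the letters of the window and does not show a binding site.

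The level of Fam111a is given in FPKM, the number of fragments scaled to the length of the gene and to the depth of the library. In the BPVB group the FPKM of Fam111a was 3.40, 3.64 and 3.76. In the sham group it was 79.1, 76.0 and 79.8. All BPVB libraries were low, all sham libraries were high, and the groups lay far apart. The mean was 3.60 ± 0.179 FPKM in the BPVB group and 78.3 ± 2.03 FPKM in the sham group (SD, n = 3 each). The ratio of the means was 21.8, and the level in the BPVB group was 4.60% of that in the sham group. Taken between single libraries, the ratio ranged from 20.2 for the lowest sham library over the highest BPVB library to 23.4 for the opposite extremes.

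**Figure D1:**
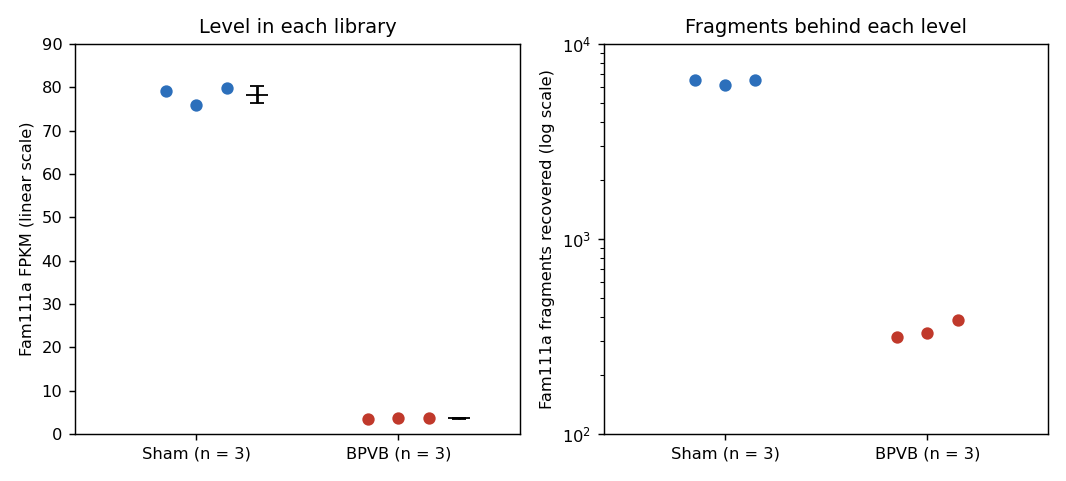
The left panel plots the FPKM of Fam111a in each library on a linear axis from 0, with the mean and SD beside the points, and the right panel plots the fragments behind each level on a log axis, for 3 sham (blue) and 3 BPVB (red) libraries. The sham libraries sit between 76.0 and 79.8 FPKM and the BPVB libraries between 3.40 and 3.76 FPKM, with no overlap in either panel.

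The FPKM values allowed the number of fragments behind them to be worked back. Fam111a held 314, 328 and 386 fragments in the BPVB group and 6501, 6158 and 6572 in the sham group. These counts set the precision of each level. The exact Poisson 95% interval, which covers counting error only, was 3.04 to 3.80, 3.26 to 4.05 and 3.39 to 4.15 FPKM in the BPVB libraries. It was 77.2 to 81.0, 74.1 to 77.9 and 77.9 to 81.8 FPKM in the sham libraries. The BPVB intervals overlapped one another, so the 3 BPVB libraries could not be told apart by counting error. In the sham group the interval of replicate 2 just met that of replicate 3 and overlapped that of replicate 1. The BPVB libraries, in which the gene was low, were the deeper ones, with 26078189 to 29725808 fragments against 23439506 to 23821184.

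Fam111a stayed detectable after banding, and its place among the genes changed. It stood at ranks 937, 986 and 921 of 17833 genes by FPKM in the sham libraries, above 94.5% to 94.8% of all genes. It stood at ranks 9632, 9393 and 9306 in the BPVB libraries, above 46.0% to 47.8% of them. In the sham group Fam111a was therefore among the more abundant messengers of the vein, and in the BPVB group it lay near the middle of the list.

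On the scale of log2(FPKM + 0.5), used for every difference below, Fam111a averaged 2.03 in the BPVB group and 6.30 in the sham group. The difference, BPVB minus sham, was -4.27 (SE 0.0540). Libraries of a group differed by at most 0.12 in the BPVB group and 0.07 in the sham group on this scale. The pooled SD within groups was 0.0522. Since the gene was chosen by this difference, these values describe it and test nothing. In bulk tissue, fewer cells that express a gene and less RNA of it per cell cannot be told apart.

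Among the 15150 genes with a mean of at least 0.1 FPKM, 4775 (31.5%) passed the threshold of a Benjamini-Hochberg adjusted p below 0.05 in limma. Of all tested genes 17.2% were higher and 14.3% lower in the BPVB group. Differentially expressed genes (DEGs), which also needed an absolute log2 difference over 1, were 3.27% of the tested genes, with 2.24% higher and 1.03% lower. All BPVB values lay below all sham values in 20.5% of tested genes, and the choice of Fam111a used this contrast.

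The fall of Fam111a was the largest, and 0.77 on the log2 scale separated it from the next. That next gene was Dbp, a transcription factor of the circadian output, with 12.3, 11.7 and 12.1 FPKM in the BPVB group and 139, 142 and 139.7 FPKM in the sham group (log2 difference -3.49). Ifit1, an interferon-induced antiviral protein, followed at -3.21. It was nearly absent from the BPVB group, with 0, 0.0928 and 0 FPKM, against 4.91, 3.82 and 4.49 FPKM in the sham group. Nefl, the light neurofilament chain, differed by -3.09 and Cd300lg, a receptor of capillary endothelium, by -2.72. With a pseudocount of 0.1 or in limma-voom on the fragments, Ifit1 came before Fam111a, at -5.17 and -7.84 against -4.41 and -4.44 for Fam111a. The first place of Fam111a thus depended on how a gene with few or no fragments in the BPVB group was treated.

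**Figure D2:**
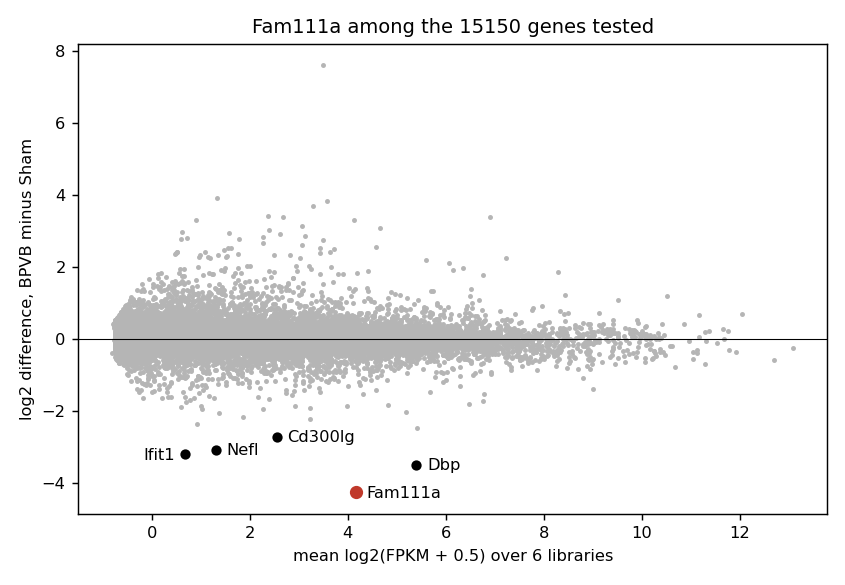
Each point is 1 of 15150 tested genes, with the mean log2(FPKM + 0.5) over 6 libraries on the horizontal axis and the log2 difference, BPVB minus sham, on the vertical axis. Fam111a (red) is the lowest point at -4.27, and Dbp, Ifit1, Nefl and Cd300lg (black) are the next lowest among genes with a mean of at least 1 FPKM.

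Nr1d1, a circadian repressor, was also lower, at -2.46, as was its relative Nr1d2, at -1.84. Of the 12157 genes with a mean of at least 1 FPKM, 16 differed by more than 3 in either direction, and 4 of these were lower.

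Rat has copies of Fam111a beside it. RefSeq places Fam111al1 and the pseudogene Fam111a-ps1 between Fam111a and its neighbour Dtx4. Fam111al1 was listed under its older symbol LOC691074 and held 4, 0 and 1 fragments in the sham group and 0, 0 and 0 in the BPVB group. It was nearly absent from both groups, was not tested, and had too few fragments for a comparison. The pseudogene was not listed. How fragments that match several copies were counted is not given in the sources used here, and the likeness of the copies was not measured, so the level of Fam111a is uncertain to that extent.

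The genes next to Fam111a were compared to see whether the fall was shared along the chromosome. Of the 20 nearest tested genes, 10 on each side in RefSeq order, 5 rose, 1 fell and the others did not pass the test. These 6 of 20 stand beside 31.5% of all tested genes, 17.2% higher and 14.3% lower, a share near theirs. Their median log2 difference was 0.02, equal to the median of 0.02 over all tested genes, and their range was -0.47 to 1.27. No neighbour came near the difference of Fam111a.

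On the side of Dtx4, that gene, a ubiquitin ligase of the Deltex family, measured 10.1, 9.81 and 9.73 FPKM in the BPVB group and 5.63, 6.34 and 5.63 FPKM in the sham group. It rose by 0.70 (SE 0.0736, adjusted p = 1.2e-04). Mpeg1, a pore-forming protein of macrophages, measured 10.7, 9.42 and 9.65 FPKM against 4.95, 3.95 and 4.43 FPKM and rose by 1.08 (SE 0.0950, adjusted p = 4.6e-05). Both had higher values in every BPVB library than in any sham library. Osbp, a sterol-binding protein, averaged 21.3 ± 0.470 and 21.3 ± 1.32 FPKM, a log2 difference of 0.00 (SE 0.0562).

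On the other side, Cntf, ciliary neurotrophic factor, averaged 3.08 ± 0.381 FPKM in the BPVB group and 3.23 ± 0.593 FPKM in the sham group (log2 difference -0.06, SE 0.139). Zfp91, a zinc finger protein, averaged 32.8 ± 1.08 and 32.1 ± 1.22 FPKM (0.03, SE 0.0463). Neither difference exceeded the spread of the libraries. Lpxn, leupaxin, an adaptor of adhesion sites, measured 2.71, 2.18 and 2.40 FPKM against 1.19, 1.35 and 0.911 FPKM and rose by 0.83 (SE 0.140, adjusted p = 0.002).

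Further out, Ms4a6a, a membrane protein of myeloid cells, rose by 1.27 (SE 0.165, adjusted p = 4.5e-04). Gna14, a G protein subunit, rose by 0.55 (adjusted p = 0.028), a call that was lost with quantile normalization (adjusted p = 0.061) and without any single library but BPVB replicate 2 (adjusted p = 0.055 to 0.091). Mrpl16, of the mitochondrial ribosome, was the neighbour that fell, by 0.31 on the log2 scale (adjusted p = 8.8e-04), from 48.2 to 38.7 FPKM. The macrophage markers moved beside Mpeg1 and Ms4a6a. All 5 of them rose, beside 17.2% of all genes, and their summed level was 617 to 643 FPKM in the BPVB group and 185 to 191 FPKM in the sham group. Their part in these results was not tested.

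**Figure D3:**
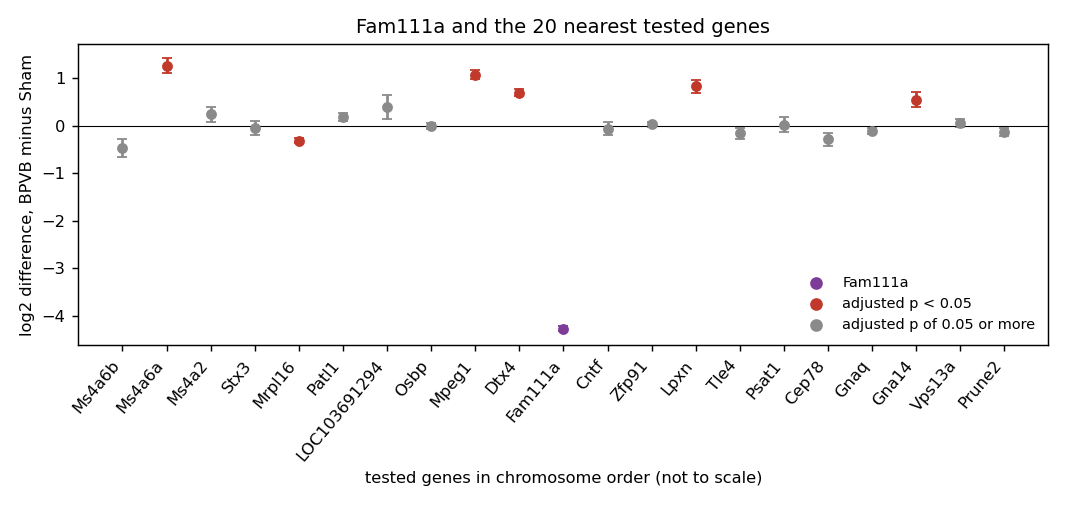
Log2 difference, BPVB minus sham, with its SE for Fam111a (purple) and the 20 nearest tested genes in chromosome order, not to scale, with red points for an adjusted p below 0.05. The neighbours lie between -0.47 and 1.27, and Fam111a lies alone at -4.27.

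PCNA, the partner of FAM111A, and the proteins that load and unload it were examined next. Pcna measured 55.0, 51.4 and 62.6 FPKM in the BPVB group and 59.0, 60.0 and 59.3 FPKM in the sham group. The BPVB values spread around the sham values and the groups overlapped. The log2 difference was -0.08 (SE 0.0640, adjusted p = 0.38), and it passed the threshold only without BPVB replicate 3 (adjusted p = 0.032). The clamp loader subunits differed by -0.01 (Rfc1, SE 0.0624), -0.19 (Rfc2, SE 0.183), 0.00 (Rfc3, SE 0.105), -0.04 (Rfc4, SE 0.128) and -0.19 (Rfc5, SE 0.109). None of the 5 passed the test, except that Rfc2 did without Sham replicate 3 (adjusted p = 0.018).

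The subunits of the alternative loader, Chtf18 (-0.25) and Dscc1 (-0.11), and the unloader Atad5 (0.10) did not pass either, at levels near 1 FPKM or below. Chtf8 was under the filter on low values. Pclaf, a small PCNA-binding protein of proliferating cells, measured 9.11, 7.83 and 11.7 FPKM in the BPVB group and 5.68, 3.59 and 1.89 FPKM in the sham group. It was the 1 gene of the 10 tested that rose (10.0%, beside 17.2% of all genes), by 1.34 (SE 0.299, adjusted p = 0.0088). The groups did not overlap, but the sham libraries differed widely, and the difference ranged from 0.98 without Sham replicate 3 to 1.67 without Sham replicate 1.

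Across DNA replication as a whole, most genes did not pass the test. Lists of PCNA and its loaders, origin licensing and the helicase, the polymerases and fork protection held 77 genes, of which 75 were in the table and 74 were tested. Of these, 5 rose and 3 fell, or 10.8% of the 74 against 31.5% of all genes tested. The median log2 difference was -0.03 and the range was -0.64 to 1.34. The split moved with the scaling. It was 8 higher and 2 lower on TPM, which brings all libraries to the same sum over genes, 5 and 6 with median-of-ratios scaling, and 5 and 5 with quantile normalization.

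Of 27 genes of licensing and the helicase, 1 rose and 0 fell, beside 17.2% of all genes that were higher and 14.3% lower. The gene that rose was Mcm7, a subunit of the replicative helicase, at 0.32 (adjusted p = 0.017). This call was lost without BPVB replicate 1 or 3 or Sham replicate 1 or 2 (adjusted p = 0.052 to 0.06). Mcm2, another subunit, averaged 6.05 ± 0.525 and 6.27 ± 0.498 FPKM (-0.05, SE 0.0931). Pola2, the regulatory subunit of DNA polymerase alpha, measured 6.16, 6.42 and 5.60 FPKM in the BPVB group and 9.21, 10.9 and 9.16 FPKM in the sham group. It was lower in every BPVB library and fell by 0.64 on the log2 scale (SE 0.0900, adjusted p = 7.1e-04). Its catalytic partner Pola1 differed by 0.06 (SE 0.122).

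The other 2 genes of replication that fell were Rpa1, the large subunit of the single-strand binding complex (-0.19, adjusted p = 0.023), and Ssbp1, which binds single-stranded DNA in mitochondria (-0.24, adjusted p = 0.03). The call of Rpa1 was lost without BPVB replicate 1 or 3 or Sham replicate 2 or 3 (adjusted p = 0.055 to 0.08). That of Ssbp1 was lost without BPVB replicate 2 or 3 or Sham replicate 1 or 2 (adjusted p = 0.079 to 0.099), on TPM (0.058) and in limma-voom (0.067). Pold4, the small subunit of DNA polymerase delta, rose by 0.53 (adjusted p = 0.0016). In the list of fork protection, Bard1, the partner of Brca1, rose by 0.84 (adjusted p = 0.0014), from 0.235 to 0.812 FPKM. Clspn, a mediator of the replication checkpoint, rose by 0.75 (adjusted p = 0.0035), from 0.414 to 1.05 FPKM. Chaf1a, a histone chaperone of the fork, differed by 0.01 (SE 0.155).

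FAM111A shares the removal of trapped proteins with SPRTN, a metalloprotease of replicating DNA. Sprtn averaged 6.43 ± 0.377 FPKM in the BPVB group and 6.70 ± 0.494 FPKM in the sham group, a log2 difference of -0.05 (SE 0.0844), within the spread of the libraries. In the list of adduct repair and topoisomerases, 7 of 20 tested genes rose in limma, or 35.0% beside 17.2% of all genes. None of the list fell, beside 14.3% of all genes, and 31.5% of all genes passed in either direction. The median of the list was 0.14. With limma-voom 8 were higher and 2 lower. The 7 were Tdp2, Nploc4, Parp1, Top1, Trex1, Nbn and Top2a. The last, a topoisomerase of dividing cells that the mitosis list below also holds, rose by 1.47 (SE 0.0962, adjusted p = 7.1e-06), from 2.81 to 8.63 FPKM.

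A list of 5 other proteases of the trypsin fold held Htra1, Htra2, Htra3, Htra4 and Tysnd1. Htra1, a secreted and intracellular protease, was the 1 that passed the test, at 0.12 (adjusted p = 0.011), from 130.3 to 141 FPKM. Thus 20.0% passed, beside 31.5% of all genes. Tbce, a tubulin chaperone and the other gene of Kenny-Caffey syndrome, averaged 15.2 ± 0.660 and 15.4 ± 0.206 FPKM (-0.01, SE 0.0541).

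**Figure D4:**
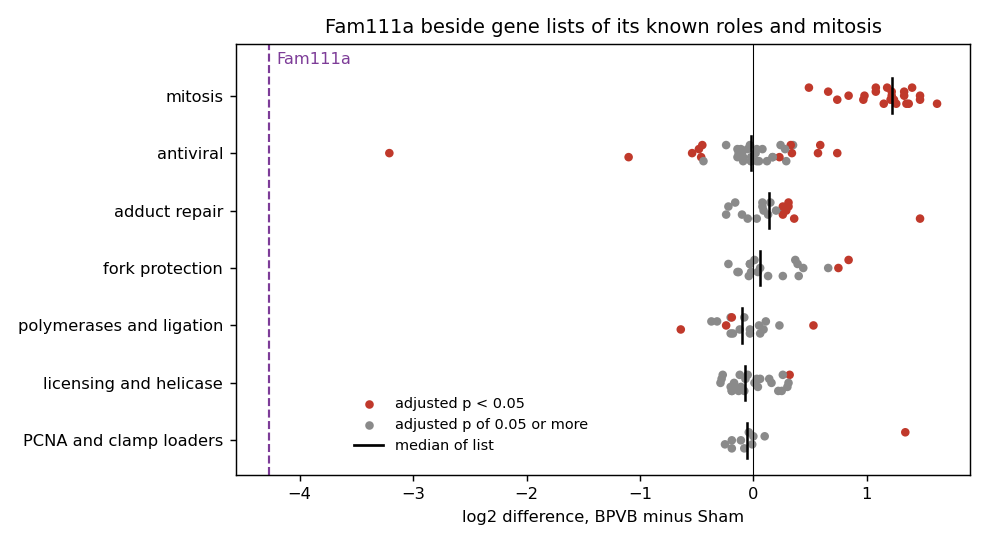
Each point is the log2 difference, BPVB minus sham, of 1 gene, in 7 lists by row, with red for an adjusted p below 0.05, grey otherwise and a black bar at the median of each list. The dashed line marks Fam111a at -4.27, and the nearest gene of any list is the antiviral Ifit1 at -3.21.

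Genes of mitosis are given because the level of FAM111A varies with the cell cycle. All 23 genes of the list rose, against 17.2% of all genes that were higher, with a median log2 difference of 1.22 and a range from 0.49 for Aurkb, a mitotic kinase, to 1.62 for Kif20a, a kinesin of cytokinesis. This count was 23 in each of the 16 alternative settings. Kif20a measured 7.12, 6.60 and 7.88 FPKM in the BPVB group and 1.51, 2.64 and 1.98 FPKM in the sham group. Fam111a was low in the same libraries in which mitotic genes were high.

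Of 19 transcription factors of the cell cycle, 2 rose, 1 fell and 16 did not pass the test, so that 15.8% passed beside 31.5% of all genes, with a median of 0.13. Foxm1, an activator of mitotic genes, rose by 0.71 (adjusted p = 0.013). E2f8, a repressor of the E2F family, was the other that rose (0.54, adjusted p = 0.041). The call of E2f8 was lost without any single library but BPVB replicate 2 (adjusted p = 0.069 to 0.12). It was also lost with quantile normalization (0.062) and with a block for replicate number (0.052). E2f6, another repressor of that family, fell by 0.18 on the log2 scale (adjusted p = 0.0098). E2f1, an activator of S phase genes, differed by -0.12 (SE 0.134).

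Other restriction factors and interferon-induced effectors were compared because FAM111A restricts viruses. Of 38 tested antiviral genes, 6 rose and 6 fell, a share of 31.6% beside 31.5% of all genes, and the median was -0.02. The split was 8 higher and 5 lower on TPM, and without BPVB replicate 3 the number that passed dropped from 12 to 7. Besides Ifit1, Usp18, a protease that removes the ubiquitin-like ISG15, fell by 1.10 on the log2 scale (adjusted p = 2.8e-04). Rsad2, which makes a chain-terminating nucleotide, fell by 0.54 (adjusted p = 0.0024). Mx2, a dynamin-like GTPase, fell by 0.46 (adjusted p = 0.023), a call lost without BPVB replicate 1 or 3 or Sham replicate 1 or 3 (adjusted p = 0.057 to 0.078).

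Ifitm1, a membrane protein that hinders viral entry, rose by 0.74 (adjusted p = 0.0018), from 35.3 ± 6.92 to 58.4 ± 1.39 FPKM. Apobec3, a DNA cytidine deaminase, rose by 0.59 (adjusted p = 0.023), and the call was lost without any one of the BPVB libraries (adjusted p = 0.051 to 0.068). Samhd1, which depletes nucleotides, averaged 3.69 ± 0.216 and 3.79 ± 0.625 FPKM (-0.03, SE 0.120). Mx1, related to Mx2, differed by -0.02 (SE 0.204).

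The deposited table lists 13 Gene Ontology (GO) terms for Fam111a. They place its product in the nucleus, nucleoplasm, chromatin, fibrillar center and cytoplasm, and give it single-stranded DNA binding, proteolysis, protein autoprocessing and roles in DNA replication, replication fork processing, DNA damage, viral genome replication and repair of cross-linked protein. Over the 13 terms the median log2 difference of the other tested genes lay between -0.01 and 0.17. The share that passed the test ran from 16.1% of 31 genes for replication fork processing to 40.9% of 22 genes for protein autoprocessing, around the 31.5% of all genes tested.

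Of all tested genes 17.2% were higher and 14.3% lower. Of 71 genes that share DNA replication, 10 rose (14.1%) and 7 fell (9.86%), together 23.9% beside 31.5% of all genes. They ran from Pola2 at -0.64 to Pclaf at 1.34. Of 36 that share negative regulation of viral genome replication, 11 rose (30.6%) and 3 fell (8.33%), together 38.9%. Slpi, a secreted protease inhibitor, rose the most, by 1.45 (adjusted p = 0.0019). In protein autoprocessing 6 of 22 rose (27.3%) and 3 fell (13.6%), together 40.9%. Pcsk1, a prohormone convertase, rose by 1.44 (adjusted p = 1.8e-04), and Hjv, hemojuvelin, fell by 0.55 (adjusted p = 2.8e-05). In replication fork processing 4 of 31 rose (12.9%) and 1 fell (3.23%), together 16.1%. Traip, a ubiquitin ligase of stalled forks, rose by 0.54 (adjusted p = 0.042), and Eme1, part of a junction nuclease, fell by 0.55 (adjusted p = 0.017). The call of Traip was lost without BPVB replicate 2 or 3 or Sham replicate 1 or 3 (adjusted p = 0.09 to 0.13) and with quantile normalization (0.064), and that of Eme1 without BPVB replicate 3 or Sham replicate 1 or 3 (adjusted p = 0.056 to 0.063) and in limma-voom (0.055).

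Only 4 tested genes share repair of cross-linked protein with Fam111a. Vcpip1, a deubiquitinase that acts with SPRTN, was the one that passed, at 0.22 (adjusted p = 0.049), and its call was lost in 11 of the 16 alternative settings, among them without any one library (adjusted p = 0.064 to 0.14). The 5 terms with at most 100 other tested genes held 160 genes together, of which 46 (28.7%) passed the test, close to the 31.5% of all genes. That number was 30 without BPVB replicate 3 and 28 without Sham replicate 1.

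The genes most like Fam111a were sought among 12156 genes with a mean of at least 1 FPKM. By Pearson r over the 6 libraries the closest were Dhrs7c (0.99990), Pfkm (0.99988), Hrc (0.99977), Actg2 (0.99966) and Fos (0.99966). Dhrs7c and Hrc act in calcium handling of the sarcoplasmic reticulum, Pfkm is the phosphofructokinase of muscle, Actg2 is a smooth muscle actin and Fos is an immediate-early transcription factor. Their differences were smaller, from -0.57 for Pfkm to -1.80 for Dhrs7c. With 2 tight groups, r was set almost wholly by the difference between groups, and 262 genes exceeded 0.99.

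By distance between values centred on each gene's mean, the closest were Dbp (0.960), Ifit1 (1.33), Nefl (1.51), Cd300lg (1.95) and Nr1d1 (2.21), against 5.22 from Fam111a to a flat profile. Dbp and Nr1d1 belong to the circadian clock, Ifit1 to the interferon response, Nefl to neurons and Cd300lg to endothelium. Both measures describe the points and carry no p, since all genes share the same 6 libraries.

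**Figure D5:**
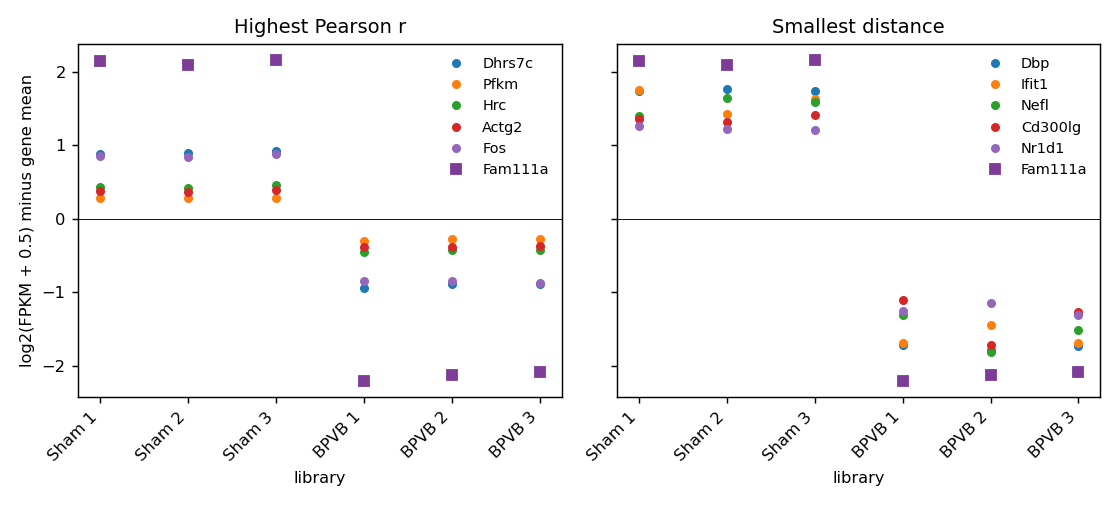
Log2(FPKM + 0.5) minus the gene's mean in each library for Fam111a (squares) and the 5 genes with the highest r (left) or the smallest distance (right). Dhrs7c, at a log2 difference of -1.80, keeps the shape at a smaller height, and Dbp, at -3.49, comes nearest in height.

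Summed levels of cell type markers differed between groups, and these values stand beside every result above. Counts are of tested markers, and those that passed are to be read beside 17.2% of all genes that were higher and 14.3% that were lower. The cardiomyocyte markers of the venous muscle sleeve were summed at 12155 to 12529.7 FPKM in the BPVB group and 16529 to 16827 FPKM in the sham group, with 5 of 7 lower and 2 higher. Smooth muscle, endothelium and fibroblast markers were present in all libraries. Summed smooth muscle markers were 3853 to 3903 against 4177 to 4257 FPKM, with 4 of 5 lower and 1 higher. Endothelial markers were 863 to 878 against 957 to 964 FPKM, with 4 of 5 lower, and fibroblast markers were 2226 to 2241 against 2117 to 2129 FPKM, with 2 of 4 higher and 2 lower.

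Lung epithelium was present as well. Alveolar type 2 markers were 529 to 579.7 FPKM in the BPVB group and 52.4 to 55.2 FPKM in the sham group, with all 6 higher. Alveolar type 1 markers (123 to 130.1 against 79.6 to 83.9 FPKM) were higher in 3 of 4 and lower in 1. Airway markers (24.7 to 28.3 against 3.45 to 5.56 FPKM) were higher in 1 of 3, and Foxj1 was at 0 in the BPVB group. Neuron markers were 5.79 to 6.98 against 18.8 to 20.2 FPKM, with 3 of 4 lower and Chat at 0 in the BPVB group.

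Neutrophil markers were 5.43 to 9.31 against 17.6 to 20.0 FPKM, with 2 of 4 lower. Mesothelial markers were 1.02 to 1.10 against 2.19 to 3.39 FPKM, with both tested markers lower. NK cell markers were 2.57 to 3.81 against 0.935 to 1.82 FPKM, with 2 of 3 higher and Ncr1 at 0 in the sham group. T cell markers were 10.7 to 13.0 against 8.03 to 8.82 FPKM, with 1 of 6 higher. The T cell markers did not move together, with log2 differences from -0.44 for Cd3d to 0.72 for Cd4 and a median of -0.03. B cell markers (2.46 to 2.89 against 1.99 to 3.34 FPKM) overlapped, as did erythroid (2749 to 3164 against 3018 to 3358 FPKM, 1 of 2 lower) and adipocyte markers (1302 to 1345 against 1302 to 1316 FPKM, 2 of 4 higher). The part of these differences in the fall of Fam111a was not tested.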

How the data were processed

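Libraries were grouped by the treatment in the labels. The authors trimmed reads with fastp, mapped them with HISAT and counted them per gene with HTSeq-count by the study's methods, while the submitters' processing notes name HISAT2 2.0.5, StringTie 1.3.3b, featureCounts 1.5.0-p3 and DESeq2 1.20.0. The sources also differ on the library kit. Genome build, annotation and strand setting are not given in the sources used here. The deposited table holds FPKM made by the authors. The FPKM of 100.00% of the 17833 genes came back to whole fragments (relative tolerance 1e-08), 99.8% of 23439506 to 29725808 fragments per library. DESeq2 was not run here.

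Genes with a mean of at least 0.1 FPKM over 6 libraries were fitted as log2(FPKM + 0.5) in limma 3.58.1 (R 4.3.3; moderated, trended, two-sided), adjusted by Benjamini-Hochberg over 15150 genes. The pseudocount understates the change of low genes. Calls required an adjusted p below 0.05, and DEGs an absolute log2 difference over 1. Fragment counts served the intervals and limma-voom. Figures and summaries used Python 3.11.15. The fit was also run on simulated data, in which the changed genes had large differences and were not near the floor of fragments. It therefore did not cover small differences or genes with few fragments.

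Fam111a, the lists and the markers were chosen with earlier results of these data known. Named genes were Fam111a and its family, all PCNA loader genes, and the largest rise and fall of each list and small GO term among the genes that passed the test. A few genes of textbook role, the 3 nearest tested neighbours on each side, the 5 most alike by each measure and the 4 next largest falls were also named. LOC691074, Cdkn1a, Rpa1, Ssbp1, Clspn, Ms4a6a, Usp18, Apobec3, Gna14, Mrpl16, Mx2, E2f8, Nr1d2, Aurkb and the members listed for adduct repair were named after their values were seen. Motifs and order came from RefSeq tables of GRCr8. Protein motifs were not searched, and 1 gene and a marker list that holds it are not reported here. Alternatives were 2 other pseudocounts, 2 other filters, 3 scalings, a replicate block, limma-voom, robust variance and leaving out each library.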

Additional observations from a re-analysis of the deposited data

How the results depend on the processing

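The log2 difference of Fam111a was -4.27. It was -4.11 with a pseudocount of 1, -4.41 with 0.1 and -4.44 in limma-voom, and -4.29 to -4.23 with a library left out. The 496 DEGs became 325 with a pseudocount of 1, 901 with 0.1 and 1122 in limma-voom, and 497 to 531 with a library left out. A larger pseudocount shrinks the differences of low genes by construction, and the cause of the shift in limma-voom was not tested. Antiviral genes that passed numbered 7 to 11 with a library left out, against 12, and genes of the small GO terms 28 to 38, against 46. Deviations of libraries with the same replicate number correlated by 0.01 to 0.03, and those with different numbers by -0.02 to 0.01. At 2 decimals no library correlated better with another number. These small values do not show whether the replicate numbers pair the samples. With the replicate block Fam111a differed by -4.27, 497 genes were DEGs and 4539 rather than 4775 genes passed the test. Of 1014 refits of the 64 named genes tested, 958 kept their call, 54 lost it, 2 gained it and 0 reversed, and 34 of the 44 genes called passed in every fit. With 3 rats per group, differences of low genes are the least certain.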

Other observations

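FAM111A is one of several proteins that bind PCNA. Cdkn1a, which encodes the cyclin kinase inhibitor p21 and also binds PCNA, measured 30.7, 32.4 and 29.2 FPKM in the BPVB group and 4.93, 5.13 and 4.92 FPKM in the sham group. It rose by 2.51 on the log2 scale (SE 0.0607, limma adjusted p = 2.1e-08), and every BPVB library lay above every sham library. The gene was picked after its values were seen. No list of PCNA-binding proteins was compared.

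The wider surroundings of Fam111a on the chromosome were much like the nearest ones. Among the 100 nearest tested genes, 50 on each side, 24 were higher and 14 lower in the BPVB group, beside 17.2% and 14.3% of all tested genes. Their median log2 difference was 0.00, and the lowest was -0.80. Between Fam111a and Cntf, the closest tested gene on that side, RefSeq lists genes of the glycine acyltransferase family, which held few fragments. Glyatl1 held 0, 0 and 1 fragments in the sham group and 1, 2 and 12 in the BPVB group, Glyat held 0, 0 and 0 against 0, 4 and 6, and Glyatl2 held 0, 0 and 0 against 1, 0 and 0.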
